A study of Mus musculus with 6 samples.

Results

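Genes of the perineuronal net were followed through depolarization of cultured mouse cortical neurons. The 10 genes were taken by name: the lecticans Acan, Bcan, Ncan and Vcan, the link proteins Hapln1 and Hapln4, the tenascins Tnr and Tnc, the receptor Ptprz1 and the hyaluronan synthase Has3. Each name matched 1 gene among the 43432 genes listed, of which 22515 entered the test. Neurons were prepared from C57BL/6 wild-type embryonic cortex at E16.5, with male and female embryos pooled, and were cultured for 7 days. Every culture, the 0 h group included, had been silenced overnight with 1 μM tetrodotoxin, a blocker of voltage-gated sodium channels, and 100 μM DL-AP5, a blocker of NMDA receptors. Depolarization with 55 mM KCl then lasted 2 h or 6 h, or was left out (0 h), with 2 libraries of poly(A) RNA in each of the 3 groups. The 0 h group is therefore a silenced culture and not a spontaneously active culture. The study describes the replicates as biological. The labels do not say whether they came from separate dissections or cultures, so the p-values measure the spread between these libraries, whatever its source.

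The perineuronal net is a lattice of extracellular matrix that condenses around the cell body and proximal dendrites of certain neurons, best known around parvalbumin interneurons of the cortex, as plasticity closes down. Membrane-bound hyaluronan synthases extrude a hyaluronan backbone, lecticans bind that backbone through their N-terminal domain, link proteins clamp the bond, and tenascin-R crosslinks lecticans at their C-terminal domain. The lecticans carry chondroitin sulfate chains, which are built by a series of Golgi enzymes on serine residues followed by glycine, and aggrecan, the product of Acan, is the lectican most closely tied to mature nets.

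The libraries held between 25959298 and 28573067 expected counts, and between 18767 and 19212 genes had a count. Depolarization was visible in the activity-regulated transcription factor genes Fos and Npas4 and in the neurotrophin gene Bdnf, which rose by 7.71, 7.64 and 4.03 at 2 h (log2 fold changes). The neuronal marker Tubb3 was at 666.1 to 1679 TPM and Gad1 was at 156.2 to 386.4 TPM, whereas Pvalb, which defines parvalbumin neurons, stayed between 0.10 and 0.88 TPM. The cultures were not free of glia: Gfap of astrocytes was at 13.78 to 30.9 TPM and Pdgfra of oligodendrocyte precursors at 35.29 to 53.18 TPM. The 2 h libraries differed from each other more than the pairs at 0 h and 6 h. The SD of the log2 ratio of replicate 1 to replicate 2 over 12290 genes was 0.429 at 2 h, against 0.246 at 0 h and 0.214 at 6 h. At 2 h that ratio went down with the GC content of the gene (Spearman's rho -0.735 across genes, which are not independent replicates).

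TPM corrects for transcript length, so it allows levels of different genes to be compared within a library. The 10 genes spanned a mean level over the 6 libraries from 0.49 to 211.6 TPM, a range of 432-fold. In the silenced cultures Ptprz1 stood at 220.8 ± 7.62 TPM and Ncan at 219.6 ± 4.46 TPM (mean ± SD, n = 2), and the libraries of these neighbours overlapped. Bcan followed at 81.77 ± 6.63 TPM, Vcan at 51.75 ± 2.91 TPM and Tnr at 43.66 ± 1.24 TPM. Tnc, Has3 and Hapln1 formed a middle group, at 22.14, 13.34 and 6.275 TPM. Acan and Hapln4 stood at the bottom, at 0.40 and 0.28 TPM, and their libraries overlapped. Apart from those 2 overlapping pairs, no neighbouring pair in the order overlapped at 0 h.

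At 2 h Ncan overlapped Ptprz1, Vcan overlapped Tnr and Has3 overlapped Hapln1. Hapln4, at 0.76 to 0.80 TPM, then stood above Acan, at 0.54 to 0.68 TPM, with no overlap, whereas at 0 h the mean of Acan was the higher. At 6 h no neighbours in the order overlapped, and Has3 and Acan had each moved up past another gene relative to 0 h. Has3 stood above Tnc, at 20.31 ± 0.283 against 16.14 ± 0.41 TPM, and Acan, at 13.62 ± 0.679 TPM, stood above Hapln1, at 6.975 ± 0.262 TPM.

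**Figure D1:**
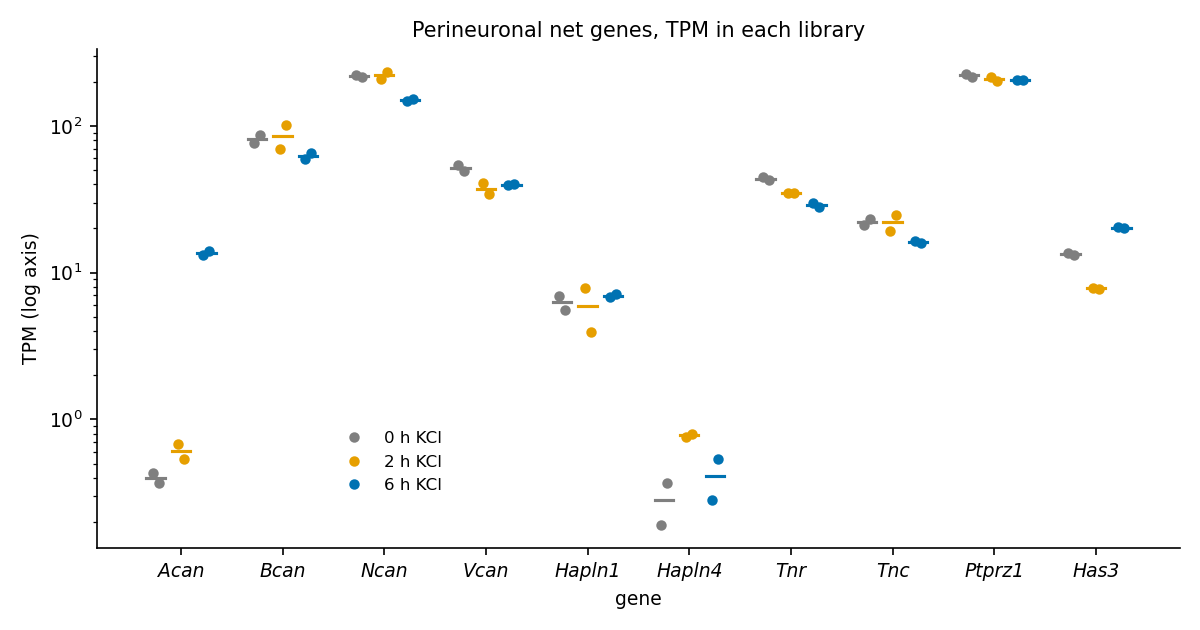
TPM of the 10 perineuronal net genes (x axis) on a log axis (y axis), with a point for each library and a bar for the mean of each pair of libraries, coloured by hours of KCl. Acan lies at 0.37 to 0.68 TPM in the 0 h and 2 h libraries and at 13.14 and 14.1 TPM in the 6 h libraries, while Ncan is at 148.1 TPM or above in every library.

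Differences between times were tested with DESeq2 on counts, with all 6 libraries in a single fit, and a call required an adjusted p no greater than 0.05 together with a log2 fold change beyond 1 in either direction. Against 0 h, 1 of the 10 genes was called higher at 2 h (Hapln4) and 1 at 6 h (Acan), where 3.62% and 9.1% of all genes were called higher. Between 2 h and 6 h, 2 of 10 were called higher (Acan and Has3), against 10.1% of all genes. With DESeq2, 0 of 10 were called lower in each comparison, where 5.94%, 10.2% and 8.02% of all genes were called lower at 2 h against 0 h, 6 h against 0 h and 6 h against 2 h. At an unadjusted p under 0.05 the lower genes numbered 1, 2 and 4 in the same order, and edgeR also called 0 lower. By adjusted p without the fold limit, 2 genes were higher and 1 lower at 2 h, 2 higher and 2 lower at 6 h, and 2 higher and 4 lower from 2 h to 6 h. The corresponding shares of all genes were 12.3% and 14.2%, 23.7% and 21.7%, and 24.1% and 21.2%. Counted by libraries that did not overlap, 3 genes lay higher and 3 lower at 2 h (31.5% and 31.1% of all genes), 4 higher and 5 lower at 6 h (40.9% and 39.6%), and 2 higher and 5 lower from 2 h to 6 h (38.2% and 36.6%). The median log2 fold change of the 10 genes was 0.13, -0.06 and -0.18, beside 0.015, 0.000 and -0.005 over all genes. Both comparisons with 0 h share the same 2 control libraries, and those with 2 h share the same 2 libraries at 2 h.

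**Figure D2:**
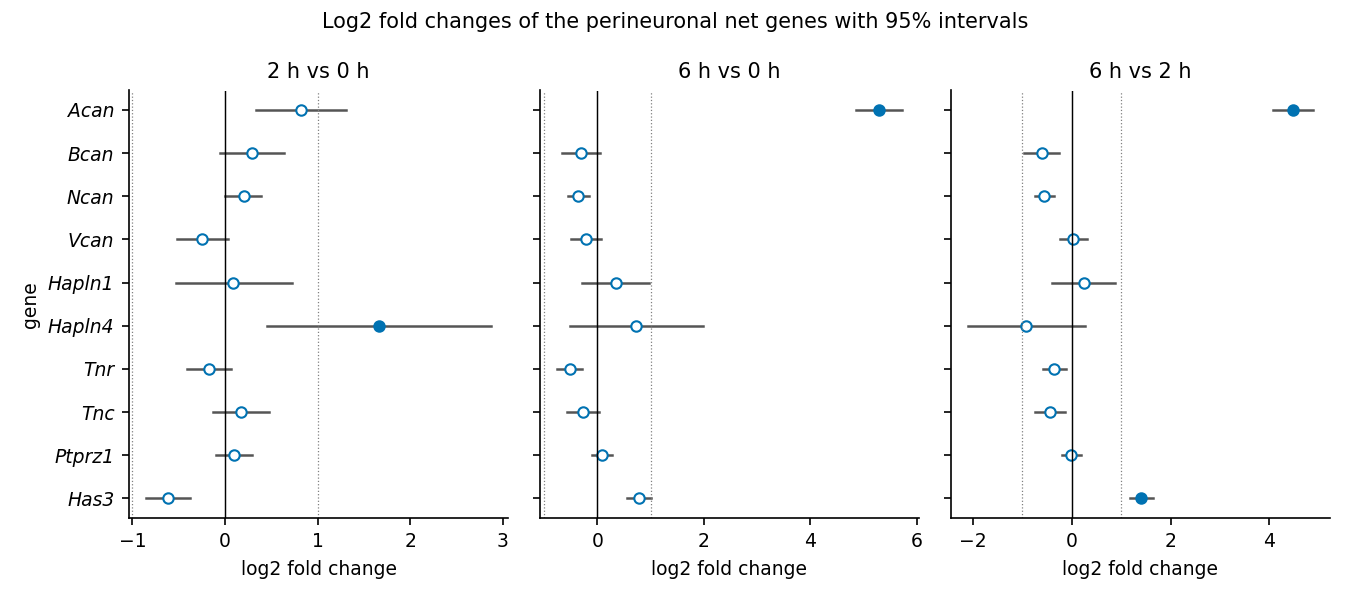
Log2 fold change (x axis) of each perineuronal net gene (y axis) in the 3 comparisons, with 95% intervals from the DESeq2 standard error as bars, filled points for called genes and dotted lines at a 2-fold change. Acan stands alone at the right of both 6 h comparisons, at 5.29 and 4.47, and Has3 is the other called gene from 2 h to 6 h, at 1.40.

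Acan encodes aggrecan, the lectican that carries the most chondroitin sulfate chains, and lies at chr7:79053483-79115099 on the plus strand (GRCm38, GENCODE M21). Its counts, scaled by the median-of-ratios factors and hereafter called normalized counts, were 42.6 and 36.2 before KCl, 77.9 and 61.0 after 2 h of it, and 1501 and 1582 after 6 h. No library of a later time overlapped those of an earlier time. From 0 h to 6 h Acan rose 39.2-fold (log2 5.29, SE 0.221, adjusted p = 4.33e-123), with a 95% interval of 29.0- to 52.9-fold. Most of this lay after 2 h, where it rose 22.2-fold (log2 4.47, SE 0.203, adjusted p = 1.26e-103). Ranked by log2 fold change over the 12290 genes that averaged 50 or more normalized counts, Acan came out highest from 2 h to 6 h and ranked 12 from 0 h to 6 h. At 2 h the difference was 1.77-fold (log2 0.82, SE 0.252, adjusted p = 0.0062), under the fold limit. On log2(TPM + 0.1) and log2(TPM + 1) it did not reach an adjusted p of 0.05, and the lowest log2 value over the alternatives was 0.20. This early difference rests on few counts: the adjusted p was 0.0511 and 0.176 without replicate 1 or 2 of 0 h and 0.0877 without replicate 1 of 2 h, with log2 values of 0.95, 0.71 and 0.62. The call at 6 h was kept under all 16 alternative settings in both comparisons, with log2 values between 3.38 and 5.41 against 0 h.

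The coding sequence sets aggrecan apart from the other lecticans. In the longest coding transcript of each gene, Acan holds 122 serine codons directly followed by a glycine codon in 2132 codons, which is 57.2 per 1000 codons. Bcan holds 7, Ncan 13 and Vcan 30, or 7.93, 10.3 and 8.94 per 1000 codons. The 6 other genes range from 2.5 to 9 per 1000 codons, the highest in Tnc with 19 pairs, and Ptprz1 holds 20 pairs, or 8.65 per 1000. The product of Ptprz1 also occurs as a chondroitin sulfate proteoglycan. The stretch of 80 codons richest in such pairs is shown for Acan as an example of what the induced transcript encodes. It is codons 1387 to 1466, inside exon 12 at chr7:79099641-79099880 on the plus strand (GRCm38, transcript sequence from GENCODE M21), and capitals mark its 15 serine-glycine codon pairs.
Acan codons 1387 to 1466: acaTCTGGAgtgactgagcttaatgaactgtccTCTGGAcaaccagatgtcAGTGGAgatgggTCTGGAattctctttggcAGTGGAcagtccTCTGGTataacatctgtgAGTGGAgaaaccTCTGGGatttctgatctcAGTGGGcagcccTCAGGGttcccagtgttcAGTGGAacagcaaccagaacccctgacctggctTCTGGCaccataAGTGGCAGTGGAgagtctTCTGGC
A serine-glycine pair is needed for a chain but not every pair carries a chain, and no chain was measured here.

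The upstream sequence of Acan is shown because this gene rose the most, beside that of Ptprz1, a gene called in no comparison whose window is nearly as rich in G and C. Both are the 250 bases before the RefSeq transcription start (GRCm38.p6), at chr7:79052976-79053225 and chr6:22875252-22875501, on the plus strand. Capitals mark the GC box, GGGCGG on either strand.
Acan upstream: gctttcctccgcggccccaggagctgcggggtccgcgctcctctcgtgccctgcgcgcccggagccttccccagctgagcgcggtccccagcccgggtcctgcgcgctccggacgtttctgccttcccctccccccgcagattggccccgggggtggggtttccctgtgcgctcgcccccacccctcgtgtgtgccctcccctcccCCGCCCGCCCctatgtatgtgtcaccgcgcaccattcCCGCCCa
Ptprz1 upstream: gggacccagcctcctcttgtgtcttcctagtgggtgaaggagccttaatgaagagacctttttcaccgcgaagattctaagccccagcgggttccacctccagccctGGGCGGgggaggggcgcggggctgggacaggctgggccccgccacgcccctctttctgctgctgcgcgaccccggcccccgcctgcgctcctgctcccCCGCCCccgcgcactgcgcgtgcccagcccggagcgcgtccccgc
GC content was 74.4% in Acan and 71.6% in Ptprz1. Windows were found for 8 of the 10 genes, with 2 starts for Tnc; Hapln4 and Has3 were not in the table. The cAMP response element (TGACGTCA) with its core TGACG, the AP-1 site, written TGANTCA, the EGR1 site, written GCGTGGGCG, the CArG box and the MEF2 element were searched on both strands, where a match to TGACGTCA is also a match to TGACG. None of these was found in any of the 9 windows, and 1.55%, 17.8%, 6.75%, 0.536%, 1.47% and 2.92% of all 32851 windows held them. With so few windows, of which the 2 of Tnc overlap, absence cannot show that these motifs are depleted. The GC box, added to the search after the other motifs, was found in 7 of the 9 windows, where both windows of Tnc share a match, and in 32.7% of all windows. These matches describe letters within 250 bases and nothing beyond them.

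Ncan encodes neurocan, the lectican of the developing brain, and lies at chr8:70093085-70120873. Its normalized counts were 21787 and 20975 before KCl, 23439 and 25550 after 2 h of it, and 16531 and 16840 after 6 h. The 6 h libraries lay below all others. The log2 fold change was -0.36 against 0 h (SE 0.0987, adjusted p = 0.00102) and -0.55 against 2 h (SE 0.0987, adjusted p = 1.53e-07), a 1.47-fold lower level that misses the fold limit. Against 0 h the adjusted p passed 0.05 when any library of 0 h or 6 h was left out (0.0819 to 0.143), with the log2 value between -0.38 and -0.33, whereas the difference from 2 h stayed under 0.05 in each case.

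Bcan encodes brevican, a short lectican deposited by glia and neurons around synapses, and lies at chr3:87987531-88000230. It measured 2860 and 3110 normalized counts before KCl, 3065 and 4260 after 2 h of it, and 2349 and 2465 after 6 h. The 2 libraries at 2 h lay far apart, replicate 1 inside the 0 h range and replicate 2 above every other library. From 2 h to 6 h Bcan was lower by 0.61 on the log2 scale (SE 0.178, adjusted p = 0.00225), and from 0 h to 6 h the value was -0.31 (adjusted p = 0.149). Without replicate 2 of 2 h the 6 h to 2 h value was -0.33, and without replicate 1 of 6 h its adjusted p was 0.0644 at a log2 value of -0.57.

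Vcan encodes versican, the large lectican of embryonic matrix and of oligodendrocyte precursors, and lies at chr13:89655312-89742509. It measured 7314 and 6394 normalized counts before KCl, 6303 and 5249 after 2 h of it, and 5928 and 5897 after 6 h. Both later groups lay below the 0 h libraries, but the log2 values of -0.25 at 2 h and -0.21 at 6 h did not pass the test (adjusted p = 0.201 and 0.213), with 95% intervals from -0.52 to 0.03 and from -0.49 to 0.06. The antisense gene Gm4117 lies within Vcan on the opposite strand without overlapping exons and had a log2 fold change of 1.29 at 6 h against 0 h (adjusted p = 9.51e-05), at a mean of 0.49 TPM.

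The makeup of the lectican transcripts was then compared on TPM. The 4 genes summed to 353.5 ± 0.785 TPM at 0 h, 345.3 ± 33.5 at 2 h and 266.9 ± 9.5 at 6 h. Acan took 0.121 and 0.105% of that sum before KCl, 0.211 and 0.146% after 2 h of it, and 5.05 and 5.15% after 6 h. Ncan took 62.9 and 61.3% at 0 h and 56.9 and 56.1% at 6 h, and Bcan and Vcan stayed within the range of their earlier libraries. Neurocan transcripts therefore still made up most of the lectican pool at 6 h. When each TPM was multiplied by the gene's number of serine-glycine codon pairs, the share of Acan was 1.03 and 0.911% before KCl, 1.83 and 1.36% after 2 h of it, and 31.2 and 32.0% after 6 h. The weighted share of Ncan was 56.8% in both 0 h libraries and 37.5 and 37.1% at 6 h. The weights come from the longest coding transcript, so they overstate Vcan wherever a shorter isoform was expressed, and they were chosen with the rise of Acan known.

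**Figure D3:**
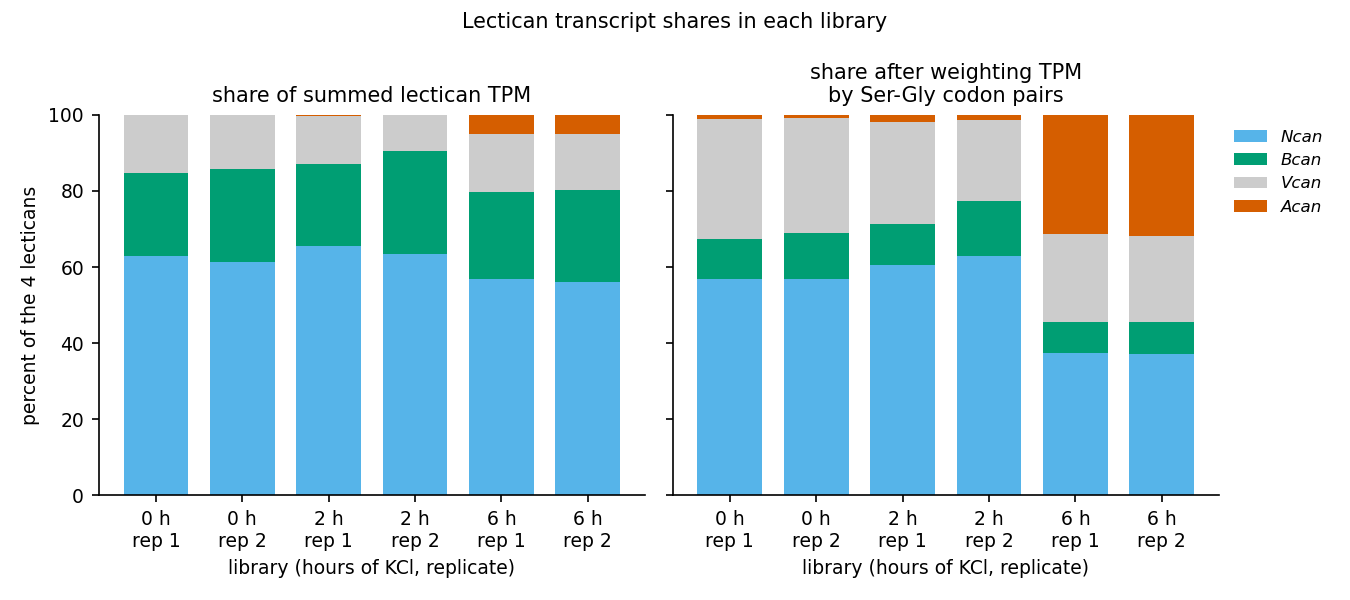
Share of the 4 lecticans (y axis, percent) in each library (x axis, hours of KCl and replicate), as a share of summed TPM at the left and after multiplying TPM by the number of serine-glycine codon pairs at the right. Acan is a thin band at 0 h and 2 h in both panels, reaches 5.05 and 5.15% of TPM at 6 h, and reaches 31.2 and 32.0% after weighting.

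Link proteins stabilize the bond between lecticans and hyaluronan, and Hapln1 and Hapln4 are the family members of net-bearing neurons. Hapln4, also called Bral2, lies at chr8:70083457-70090862, directly beside Ncan. It measured 8.9 and 16.9 normalized counts before KCl, 39.9 and 41.4 after 2 h of it, and 15.0 and 28.0 after 6 h. Both 2 h libraries lay above the other 4, and the 0 h and 6 h libraries overlapped. Hapln4 rose 3.15-fold at 2 h (log2 1.66, SE 0.617, adjusted p = 0.0307), and the value at 6 h against 0 h was 0.73 (adjusted p = 0.366). The level never passed 0.80 TPM, and the call was lost when any of the 6 libraries was left out, with adjusted p between 0.0803 and 0.394 and log2 values between 1.28 and 2.2.

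Hapln1, or cartilage link protein, lies at chr13:89539796-89611652 next to Vcan. It measured 470 and 373 normalized counts before KCl, 604 and 296 after 2 h of it, and 522 and 541 after 6 h. The 2 h libraries enclosed all others. No comparison passed the test, with log2 values of 0.09, 0.34 and 0.24 and adjusted p of 0.886, 0.417 and 0.574. The interval at 6 h against 0 h ran from -0.29 to 0.96, so an increase of up to 1.95-fold lay within the error. At 39.8% GC, Hapln1 had the lowest GC content of the 10 genes, and its higher replicate at 2 h was replicate 1, whereas Bcan, with the highest at 60.7%, had its higher value in replicate 2. With a correction for the GC-dependent difference between replicates, Hapln1 was 0.03 at 2 h (adjusted p = 0.922) and 0.34 at 6 h against 0 h (adjusted p = 0.0902). The corrected values of Bcan were 0.28 at 2 h and -0.31 at 6 h against 0 h, the same sizes as without it, with adjusted p of 0.00567 and 0.00146.

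Tenascin-R, the product of Tnr, is made by oligodendrocyte-lineage cells and some neurons and crosslinks lecticans. Tnr lies at chr1:159523769-159931729 and measured 6479 and 6260 normalized counts before KCl, 5877 and 5422 after 2 h of it, and 4738 and 4118 after 6 h. The 3 groups did not overlap and stood in descending order with time. Against 0 h Tnr was lower by 0.52 on the log2 scale at 6 h (SE 0.122, adjusted p = 7.06e-05), a 1.44-fold difference under the fold limit, and the value at 2 h was -0.17 (adjusted p = 0.332). Without replicate 2 of 6 h the 6 h value was -0.43 with an adjusted p of 0.0511. From 2 h to 6 h the value was -0.35 (adjusted p = 0.0106), and the adjusted p rose to 0.0623, 0.0645 and 0.291 without replicate 1 or 2 of 0 h or replicate 2 of 6 h, the last at a log2 value of -0.25.

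Tenascin-C, the product of Tnc, is an astrocyte and progenitor matrix protein. Tnc lies at chr4:63959785-64047015 and measured 2046 and 2206 normalized counts before KCl, 2117 and 2671 after 2 h of it, and 1811 and 1714 after 6 h. The 6 h libraries lay below all others. The value was -0.44 from 2 h to 6 h (SE 0.153, adjusted p = 0.0108) and -0.27 from 0 h to 6 h (adjusted p = 0.142). Without replicate 2 of 2 h the difference from 2 h to 6 h was -0.25 with an adjusted p of 0.0598, and without either 6 h replicate its adjusted p was 0.0886 and 0.174.

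Cell type markers differed between the times as well, and not all in the same way as these genes. The summed TPM of 10 astrocyte markers was 860 to 933.8 at 0 h, 809.6 to 845.7 at 2 h and 624.3 to 650.8 at 6 h. By adjusted p 6 of the 10 were lower at 6 h against 0 h, where 21.7% of all genes were, and 0 were called by DESeq2. Gfap had a log2 fold change of -0.63 (adjusted p = 0.0216) that rested on 1 library: it was -0.24 without replicate 2 of 0 h (adjusted p = 0.481) and -0.93 without replicate 1. The 9 oligodendrocyte-lineage markers took another course than Tnr, with sums of 136.9 to 170.6 at 0 h, 100.7 to 118.9 at 2 h and 130.4 to 138.1 at 6 h, and with Olig2 higher at 6 h than at 0 h (log2 0.51, adjusted p = 0.00123). The sum of 9 progenitor markers, 4201 to 4241 at 0 h, 3433 to 3968 at 2 h and 3372 to 3508 at 6 h, is mostly Fabp7, at 3861 and 3869 TPM in the 0 h libraries. Within that list Vim and Nes were called higher at 6 h (log2 1.42 and 1.08) and Hes5 lower, and the median was 0.25. Nes was at 0.96, under the fold limit, without replicate 1 of 0 h.

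Neuronal markers moved in both directions. The 10 general neuronal markers summed to 3773 to 3841 TPM at 0 h, 3119 to 3290 at 2 h and 3365 to 3549 at 6 h, and their median log2 value at 6 h was 0.39. Tubb3 was the 1 marker of the 10 called at 6 h against 0 h, where 10.2% of all genes were called lower, and was lower by 1.01 on the log2 scale (-0.90 without replicate 1 of 6 h). The 9 markers of GABA interneurons summed to 670.1 to 722.7 at 0 h, 840.9 to 955.5 at 2 h and 1109 to 1112 at 6 h, and 3 of the 9 were called higher at 6 h (Sst, Gad2 and Gad1) and 0 lower, where 9.1% and 10.2% of all genes were called. The call of Sst (log2 1.05) was lost without replicate 2 of 6 h, where its log2 value was 0.99. Much of the rise in that sum was in Gad1, which makes GABA and went from a mean of 157.6 TPM at 0 h to 370.5 TPM at 6 h (log2 1.41). The markers Lhx6 and Erbb4 had log2 values of -0.10 and -0.39 (adjusted p = 0.671 and 0.288). The 7 markers of parvalbumin neurons summed to 37.1 to 40.0 TPM at 0 h, 50.6 to 53.4 at 2 h and 70.4 to 70.8 at 6 h. That sum is driven by Tac1, at 7.05 and 12.8 TPM before KCl and 34.8 and 33.3 after 6 h; 2 of the 7 were called higher at 6 h (Tac1 and Pthlh) and 1 lower (Syt2), where 9.1% and 10.2% of all genes were called, and the list median was -0.15. The log2 value of Syt2 was -1.56 on counts and as high as 0.28 on TPM, and its call was lost without replicate 2 of 0 h or replicate 2 of 6 h (values of -1.74 to -1.36 with a library left out). Pvalb and Cox6a2 were under 1 TPM in every library. Microglial and vascular markers were low, at 4.2 to 10.56 and 14.41 to 21.72 summed TPM. At 6 h against 0 h 3 vascular markers were called higher (Pecam1, Rgs5 and Col1a2) and 1 lower (Pdgfrb). Of the microglial markers 1 was called higher (P2ry12) and 0 lower. None of these called markers passed 2 TPM in any library. In bulk RNA fewer cells of a type and less RNA per cell cannot be told apart, and the part of these markers in the values of the perineuronal net genes was not tested.

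Ptprz1 encodes a receptor-type tyrosine phosphatase whose secreted form is the proteoglycan phosphacan, and lies at chr6:22875502-23052916. It measured 24918 and 23517 normalized counts before KCl, 26899 and 24860 after 2 h of it, and 25843 and 25555 after 6 h. The 2 h libraries overlapped both other groups. The log2 values were 0.10 at 2 h and 0.09 at 6 h against 0 h (adjusted p = 0.555 and 0.514) and -0.01 between 2 h and 6 h. Both values against 0 h turned negative, to -0.07 and -0.16, when libraries were scaled by their totals. The interval of the 6 h value, from -0.11 to 0.28, left room for at most a 1.21-fold increase on the main scale.

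Has3 encodes a hyaluronan synthase that makes shorter chains than its relatives, and lies at chr8:106870242-106884566. It measured 933 and 915.2 normalized counts before KCl, 614.1 and 590.3 after 2 h of it, and 1610 and 1574 after 6 h. The 3 groups were far apart, low at 2 h and high at 6 h, with replicates close together. At 2 h Has3 was 1.53-fold lower (log2 -0.62, SE 0.121, adjusted p = 4.45e-06) and at 6 h it was 1.72-fold higher than at 0 h (log2 0.78, SE 0.117, adjusted p = 1.78e-10), both under the fold limit. From 2 h to 6 h Has3 rose 2.64-fold (log2 1.40, SE 0.12, adjusted p = 1.73e-29). All 3 adjusted p values stayed at or under 0.038 when any library was left out, and the call from 2 h to 6 h was kept under all 16 alternatives. Has3 shares exon sequence with Chtf8 on the opposite strand, at a mean of 88.6 TPM. The paper describes the libraries as stranded, but the strand setting of the counting is not given in the sources used here. Chtf8 had values of -0.19 at 2 h, -0.64 at 6 h and -0.45 from 2 h to 6 h. The part of Chtf8 reads in the values of Has3 was not tested.

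Of the close relatives of these genes, Tnn was called higher at 6 h. Cspg5 was lower at 6 h by adjusted p but under the fold limit, and the others were low or did not pass the test. Each lectican gene has a link protein gene as a neighbour with no coding gene between them: Acan and Hapln3 lie 2 bases apart, Ncan and Hapln4 2222, Bcan and Hapln2 21519, and Vcan and Hapln1 43659. The neighbour of Acan did not follow it: Hapln3 measured 8.88 and 21.9 normalized counts before KCl, 17.0 and 30.0 after 2 h of it, and 12.8 and 6.45 after 6 h, a log2 value of -0.68 at 6 h (adjusted p = 0.539). Hapln2 had at most 3.0 normalized counts in any library. The other hyaluronan synthases were scarce, with Has2 at 20.97 to 40.5 normalized counts (log2 -0.81 at 2 h, adjusted p = 0.233) and Has1 with a count in 1 library. Tnxb measured 11.54 to 31.2 and the NG2 proteoglycan gene Cspg4 163.8 to 324.4 normalized counts, and neither passed the test. Tnn, which encodes tenascin-N, rose at 6 h from 12.4 and 7.58 to 58.9 and 81.7 normalized counts (log2 2.82, SE 0.626, adjusted p = 3.25e-05), at no more than 0.98 TPM. Cspg5, encoding neuroglycan C, was lower at 6 h (6474 and 6767 at 0 h, 3581 and 3659 at 6 h), by 0.87 on the log2 scale (adjusted p = 1.06e-14), under the fold limit.

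Enzymes that build chondroitin sulfate were next described as a list of 26 genes, of which 25 had an adjusted p and Chst13 had no counts. At 2 h 0 were called higher and 4 lower (3.62% and 5.94% of all genes), the latter Xylt2, Chst15, Chst12 and Dsel, at 6 h against 0 h 2 higher and 2 lower (9.1% and 10.2%), and from 2 h to 6 h 7 higher and 0 lower (10.1% and 8.02%). The median log2 values were 0.01, 0.19 and 0.22, beside 0.015, 0.000 and -0.005 over all genes. Both enzymes called lower at 6 h add galactose of the linker that joins a chain to its serine. B4galt7 measured 494.5 and 492.2 normalized counts at 0 h and 148.7 and 176.4 at 6 h (log2 -1.60, SE 0.186, adjusted p = 1.18e-16), and B3galt6 384.4 and 405.4 at 0 h and 168.0 and 168.9 at 6 h (log2 -1.23, SE 0.193, adjusted p = 1.55e-09). Those called higher act on the chain itself. Dsel, a dermatan sulfate epimerase, measured 905.5 and 787.9 before KCl, 409.4 and 189.2 after 2 h of it, and 2087 and 2505 after 6 h, so it fell at 2 h (log2 -1.5) and rose above its starting level by 6 h (log2 1.44, adjusted p = 1.35e-05). Chsy3, a chain-polymerizing synthase, had a log2 value of 1.07 at 6 h (adjusted p = 8.79e-05), which was 0.96 without replicate 2 of 0 h.

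Proteases that cleave lecticans and their inhibitors formed a list of 20 genes, 19 with an adjusted p and Mmp3 with no counts. At 2 h 1 was called higher and 2 lower (3.62% and 5.94% of all genes), at 6 h against 0 h 4 higher and 0 lower (9.1% and 10.2%), and from 2 h to 6 h 5 higher and 0 lower (10.1% and 8.02%), with medians of 0.04, 0.09 and -0.05. The 4 called at 6 h took different courses. Adamts1, an aggrecanase, was at 429.7 and 413.8 normalized counts before KCl, 1018 and 1094 after 2 h of it, and 1037 and 1017 after 6 h, so its rise was complete at 2 h. Plat, tissue plasminogen activator, climbed through both steps, from 1256 and 1154 to 1946 and 2074 and then 2832 and 2791 (log2 1.22 at 6 h, adjusted p = 4.71e-25). Adamts8 and Adamts9 were not called at 2 h and rose by 1.59 and 1.11 at 6 h (adjusted p = 8.80e-15 and 2.78e-10).

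Genes of hyaluronan turnover and binding numbered 11, 10 with an adjusted p and Habp2 with no counts. At 2 h 1 was called higher and 1 lower (3.62% and 5.94% of all genes), at 6 h against 0 h 3 higher and 0 lower (9.1% and 10.2%), and from 2 h to 6 h 3 higher and 1 lower (10.1% and 8.02%), with medians of 0.08, 0.07 and -0.16. Tnfaip6, a secreted hyaluronan-binding protein, climbed from 44.4 and 59.0 normalized counts in silenced cultures to 410.4 and 358.7 at 2 h and back to 185.1 and 159.2 at 6 h (log2 2.89 at 2 h and 1.73 at 6 h). The hyaluronan receptor gene Cd44 went from 243.2 and 250.3 at 0 h to 661.3 and 672.2 at 6 h (log2 1.43, adjusted p = 7.38e-17). Cemip2, a hyaluronidase of the cell surface, dipped to 904.7 and 869.4 at 2 h from 1155 and 1174 and reached 2747 and 3024 at 6 h (log2 1.31, adjusted p = 3.94e-27). Cemip2 thus shared with Has3 the order of its groups, low at 2 h and high at 6 h.

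Receptors for the net and proteins that bind it numbered 19, all with an adjusted p. At 2 h 2 were called higher and 1 lower (3.62% and 5.94% of all genes), at 6 h against 0 h 3 higher and 1 lower (9.1% and 10.2%), and from 2 h to 6 h 4 higher and 0 lower (10.1% and 8.02%), with medians of 0.19, 0.12 and -0.17. Nptx2, a secreted pentraxin of excitatory synapses on interneurons, climbed from 68.4 and 88.5 normalized counts in silenced cultures to 170.8 and 230.5 at 2 h and 1041 and 1035 at 6 h (log2 3.72, SE 0.226, adjusted p = 2.51e-58). Sema3a, the repulsive guidance cue that binds nets through chondroitin sulfate, rose by 1.19 at 6 h (adjusted p = 2.38e-05). Rtn4r, a receptor of chondroitin sulfate proteoglycans, fell by 1.27 (adjusted p = 1.12e-04), from 230.8 and 262.9 to 84.5 and 120.5 normalized counts. Otx2, a homeoprotein captured by nets, was the other gene called higher at 2 h beside Nptx2 (log2 1.04, adjusted p = 0.0402), a call kept in 4 of 16 alternatives and lost when any of the 6 libraries was left out (adjusted p 0.149 to 0.329). It was scarce, at 25.7 and 27.0 normalized counts at 0 h and 78.1 and 60.2 at 6 h (log2 1.39, adjusted p = 0.00177), and its call at 6 h was lost without replicate 1 or 2 of 0 h or replicate 1 of 6 h, with log2 values of 1.19 to 1.57 and adjusted p of up to 0.136 with a library left out.

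**Figure D4:**
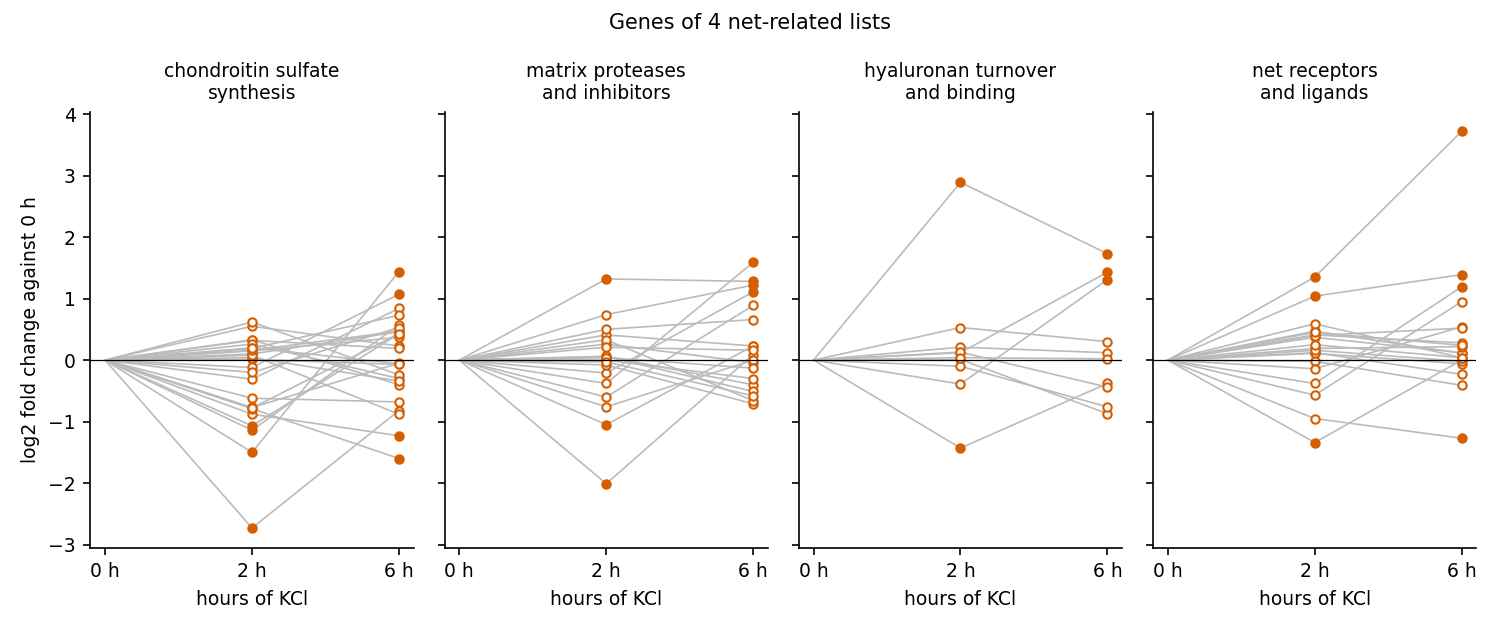
Log2 fold change against 0 h (y axis) over the hours of KCl (x axis) for each gene with counts in 4 net-related lists, with a line for each gene and filled points where a gene was called against 0 h. Among chondroitin sulfate enzymes the called genes at 2 h all lie below 0, down to -2.73 for Chst12, and Nptx2 reaches 3.72 among receptors and ligands.

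The genes whose course was most like that of Acan were found by the Euclidean distance between log2 normalized counts (with 1 added) set relative to the 0 h mean, over 6 libraries and 12289 genes. The nearest were Gpr3 (distance 2.05), Nup210l (2.07), Hspb3 (2.09), Fndc9 (2.40) and Nptx2 (2.41). Gpr3, an orphan receptor that raises cAMP, measured 6.21 and 9.27 normalized counts before KCl, 34.0 and 34.1 after 2 h of it, and 226.8 and 197.9 after 6 h. Their rise after 2 h, by 2.18 to 3.43 on the log2 scale beside 4.47 in Acan, follows from how they were chosen and is given as a description. Gpr3 and Hspb3 passed the minimum of 50 mean normalized counts through their 6 h libraries. Hapln4 was under that minimum and was not searched, and none of the 8 other perineuronal net genes that were searched was among the 5.

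The effective length of a gene, the abundance-weighted length of its transcripts as the quantifier estimated it, tells whether the mix of isoforms moved. It was tested with limma for 9 of the 10 genes, all but Hapln4, and 0 were called in any comparison, where 0.0356%, 0.525% and 0.116% of the genes tested were called at 2 h against 0 h, 6 h against 0 h and 6 h against 2 h. At an unadjusted p under 0.05, 1 gene had a lower length at 6 h against 0 h and 1 at 6 h against 2 h. For Acan, Ncan, Hapln1, Hapln4 and Ptprz1 the tables hold 1 transcript each, so an isoform change could not show. Bcan, with 6 transcripts, had effective lengths of 2615 and 2555 bases before KCl, 2705 and 2658 after 2 h of it, and 2431 and 2348 after 6 h, which do not overlap between groups (log2 -0.11 at 6 h against 0 h, adjusted p = 0.185). Tnr, with 5 transcripts, had 10255 and 10390 bases before KCl, 10432 and 9837 after 2 h of it, and 9805 and 9239 after 6 h (adjusted p = 0.399 at 6 h against 0 h).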

How the data were processed

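Poly(A) RNA was sequenced from 6 libraries. Per the labels and the submitters' processing notes, the authors aligned reads to mm10 with Bowtie2 2.2.9 and quantified genes with RSEM 1.3.0. The deposited tables give, per gene, estimated counts (expected counts), TPM as computed by the authors, and the effective length in bases, a score of the transcript mix. The FPKM values, which the authors also computed with RSEM, were not used. The paper describes the libraries as stranded, but the annotation release and the strand setting of the counting are not given in the sources used here. Coordinates and names are from GENCODE M21 (GRCm38), which placed 42548 of 43432 genes; 42462 had a symbol.

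Rounded expected counts entered DESeq2 1.42.0 (Wald test, Benjamini-Hochberg adjustment over all genes, all 6 libraries in the fit). Calls had an adjusted p no greater than 0.05 and a log2 fold change beyond 1 in size. Effective length was tested on the log2 scale with limma 3.58.1 where expected counts averaged 100 or more, with calls at the same adjusted p and a log2 ratio of 0.2 or beyond. On simulated counts for 2 h against 0 h, over 20924 genes, 92% and 100% of genes changed by log2 1.5 and 2.5 were recovered. Alternatives were edgeR 4.0.16, TMM factors, library totals, a count minimum, log2(TPM + 1) and log2(TPM + 0.1), a GC correction, a replicate block, a test against a fold change of 2 and leaving out each library in turn.

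The 10 genes, the other lists and the tests were chosen with earlier results of these data known. Beside the 10 genes and their close relatives, the text names in each list up to 4 genes with the largest log2 fold change at 6 h among called genes with a mean of at least 50 normalized counts, the markers Fos, Npas4, Bdnf, Tubb3, Gad1, Pvalb, Gfap and Pdgfra, and the 5 genes most like Acan. Others were named after their values were seen: Otx2 (its mean was just under 50), Chtf8, Gm4117, further cell type markers and the further genes called lower at 2 h. The counts of reads limit the precision, and the error is large where a gene had few counts (Hapln4 at all times, and Acan at 0 h).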

Additional observations from a re-analysis of the deposited data

How the results depend on the processing

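Of the log2 fold changes of the 10 genes under each alternative, 451 kept their direction and their side of the call, 10 lost the call and 19 changed sign. All 10 lost calls were those of Hapln4 at 2 h. The number of genes called higher at 2 h against 0 h therefore fell from 1 to 0 with library totals, log2(TPM + 0.1), log2(TPM + 1) and the test against a fold change of 2, and was 0 to 0 over the fits that left out 1 library each. The calls of Acan at 6 h against both times and of Has3 from 2 h to 6 h were kept under all alternatives listed. The share of Acan in the lectican sum at 6 h was 5.81% on expected counts in place of 5.1% on TPM.

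The changes of sign were all in values that had not passed the test. Hapln1 at 2 h against 0 h was -0.08 with library totals, -0.16 and -0.13 on log2(TPM + 0.1) and log2(TPM + 1), and -0.52 to 0.50 with 1 library left out (-0.05 without replicate 2 of 0 h), and from 2 h to 6 h it was -0.17 to 0.85 with 1 library left out. Tnc at 2 h was -0.02 on both TPM scales and -0.02 to 0.32 with 1 library left out. Ptprz1 at 2 h was -0.07, -0.09 and -0.09 and at 6 h -0.16, -0.10 and -0.10 with library totals and the 2 TPM scales, and from 2 h to 6 h it was -0.05 to 0.06 with 1 library left out. Vcan from 2 h to 6 h was -0.005 with TMM factors, -0.04 with library totals and -0.08 to 0.18 with 1 library left out. The cause was not tested.

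Scaling by library totals moved the median of all genes to -0.157 at 2 h and -0.253 at 6 h against 0 h, from 0.010 and -0.008, and the share of calls that were higher to 27.3% and 28.7%, from 37.8% and 47.2%. Among other genes named, this scaling ended the calls of Chsy3, Adamts9, Plat, Sema3a, Nes and Sst at 6 h against 0 h and of Hyal2 from 2 h to 6 h, and both TPM scales ended those of Chsy3, Adamts9, Sema3a, Nes and Hyal2, of Syt2 and Sst at 6 h and of Xylt2 at 2 h against 0 h. The log2(TPM + 1) scale alone of these also ended the calls of Tnn and Otx2 at 6 h and of Nptx2 at 2 h against 0 h. The replicate numbers are not said to pair the libraries. With a replicate block Acan was 0.82 at 2 h and 5.29 at 6 h against 0 h and 4.48 from 2 h to 6 h, the block changed no call of the 10 genes, and deviations of equal numbers correlated by 0.281, -0.00226 and 0.152 in the 3 comparisons.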

Other observations

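Several enzymes and receptors of the net were low at 2 h and higher again at 6 h, and are given here with values, chosen after those values were seen. Over all genes, 5.94% were called lower at 2 h and 10.1% were called higher from 2 h to 6 h. The share with both calls was not computed. The paper also describes a cluster of genes lower at 2 h and higher at 6 h, so this course is not particular to the net. Both comparisons below share the 2 h libraries. Chst15, which adds a further sulfate to chondroitin sulfate A, measured 680.0 and 653.1 normalized counts before KCl, 310.6 and 295.7 after 2 h of it, and 1007 and 972.3 after 6 h (DESeq2 log2 -1.14 at 2 h against 0 h and 1.71 from 2 h to 6 h). Chst12, a chondroitin 4-O-sulfotransferase, went from 250.3 and 263.8 to 33.0 and 44.5 and then 115.6 and 176.4 (log2 -2.73 and 1.92). Xylt2, which places the xylose that starts a chain, went from 262.8 and 283.2 to 103.9 and 156.1 and then 333.9 and 401.2 (log2 -1.07 and 1.5). The other xylosyltransferase gene of the list, Xylt1, had more counts and was not called in any comparison. Its normalized counts were 752.8 and 727.3 before KCl, 645.1 and 643 after 2 h of it, and 1052 and 1083 after 6 h. The value of Xylt2 at 2 h was lost as a call without replicate 2 of 0 h or replicate 1 of 2 h, with log2 values from -1.41 to -0.82 over the fits that left out a library.

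Outside chondroitin sulfate synthesis, the aggrecanase gene Adamts15 measured 493.6 and 461.8 normalized counts before KCl, 123.8 and 112.7 after 2 h of it, and 495.4 and 522.7 after 6 h (log2 -2.01 and 2.11). Nrp1, a receptor for the guidance cue encoded by Sema3a, went from 1706 and 1756 to 713.0 and 654.4 and then 1709 and 1753 (log2 -1.34 and 1.34). Hyal2, a hyaluronidase, went from 284.1 and 332.9 to 107.8 and 121.0 and then 230.1 and 244.2 (log2 -1.43 and 1.05), and its call from 2 h to 6 h was lost without replicate 1 of 2 h, at a lowest log2 value of 0.98. Mmp16, a membrane-bound matrix metalloproteinase, went from 2081 and 1489 to 1067 and 651.3 and then 2078 and 2118 (log2 -1.05 and 1.29), and its call at 2 h was lost without replicate 1 of 0 h or replicate 2 of 2 h (lowest size -0.76), and that from 2 h to 6 h without replicate 2 of 2 h (0.99).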
